A study of Mus musculus with 4 samples.

Results

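The cells described here were resident-type macrophages of the mouse left ventricle, chosen by what their RNA held. A cell was a member when it held at least 8 unique molecules (UMIs) of C1qa, C1qb and C1qc together, at most 1 UMI of Trem2, and at least 3 UMIs of Folr2, Lyve1, Timd4 and Cd163 together. It could hold at most 2 UMIs of Cd79a, Cd79b and Ms4a1 and at most 1 UMI of Cd3e, Cd3d and Cd3g, which left out B and T cells. The rule found 169 cells among 11148 leukocytes that a hashtag assigned to a mouse. Of these, 122 came from DOCA-salt mice and 47 from sham mice. Since RNA levels chose the members, the levels of those genes are given as a description only.

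The mice were C57Bl6J, with 4 under DOCA-salt, which pairs the mineralocorticoid deoxycorticosterone acetate with a salt load to cause hypertension, and 4 sham controls. The labels used here give neither the dose, the duration nor the age. In both groups the left ventricle was perfused and digested, CD45+ leukocytes were enriched with beads and sorted live, and hashtag antibodies marked the mouse of origin. The mice of a group were pooled into 1 library for 5′ single-cell sequencing with surface antibodies, so group and library cannot be told apart.

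Resident macrophages of the heart lie between muscle fibres and along vessels and nerves, and many descend from embryonic precursors that renew in place, whereas others are replaced by blood monocytes that carry the chemokine receptor Ccr2. In mice the long-lived cells are known for Timd4, a receptor for phosphatidylserine on dying cells, Lyve1, a receptor for hyaluronan, Folr2, a folate receptor, and Cd163, the receptor for haemoglobin bound to haptoglobin. They clear cell debris, and they are known to have little MHC class II when Lyve1 is high. Trem2, a lipid-sensing receptor, marks another macrophage state, and the C1q genes encode the first component of complement.

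Single mice gave 27, 46, 12 and 37 members in DOCA-salt mice 1 to 4, and 2, 12, 7 and 26 members in sham mice 1 to 4. Their summed RNA came to 108909, 152433, 38573 and 136093 UMIs in the DOCA-salt mice, and to 8442, 32453, 21856 and 94641 UMIs in the sham mice. Sham mouse 1 with its 2 members was left out of the tests on genes and antibodies in members, which therefore set 4 DOCA-salt against 3 sham mice. It was kept for shares and for DOCA-salt against sham in the other C1q macrophages, with 4 mice in each group. Levels are CPM, which divide a gene's UMIs by all UMIs of the mouse's members, so 1 UMI is worth more CPM where fewer cells were summed. The DOCA-salt library held 7600 barcodes and the sham library 4359, and 41 barcode sequences occurred in both lists, none of them a member's. Scrublet called no member a doublet.

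Cd163 was the most frequent of the 4 markers, with at least 1 UMI in 131 of 169 members, followed by Folr2 in 106, Lyve1 in 84 and Timd4 in 29. In 5708 B cells of the same libraries, which should lack these genes, 0.806% held a Cd163 UMI, 1.09% Folr2, 0.788% Lyve1 and 0.193% Timd4. The median depth was 3377 UMIs in members and 2825 UMIs in B cells. At least 1 UMI of all 4 markers was found in 13 members, of 3 markers in 41, of 2 in 60 and of 1 in 55. At this depth a marker without a UMI is not shown to be absent from a cell. The most frequent pattern was Cd163 alone, in 40 members, of which 34 came from DOCA-salt and 6 from sham mice. Folr2 with Lyve1 and Cd163 came next with 32 members, 21 from DOCA-salt and 11 from sham mice.

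Folr2 (chr7:101839988-101857194, minus strand, mm10) stood at 551, 623, 467 and 588 CPM in members of DOCA-salt mice 1 to 4, and at 1777, 339, 1098 and 782 CPM in those of sham mice 1 to 4. Lyve1 (chr7:110850607-110863239, minus strand) stood at 82.6, 676, 1089 and 463 CPM in DOCA-salt members, and at 237, 401, 366 and 856 CPM in sham members. The groups overlapped for both genes, and Lyve1 varied more between DOCA-salt mice than between the groups. Cd163 (chr6:124304656-124330527, plus strand) stood at 386, 1082, 1193 and 1132 CPM in DOCA-salt members, and at 829, 1233, 320.3 and 581 CPM in sham members. Timd4 (chr11:46810800-46844332, plus strand) was low in both, at 45.9, 45.9, 129.6 and 22.04 CPM in DOCA-salt members and 237, 30.8, 137 and 148 CPM in sham members. DOCA-salt mouse 1 had the least Lyve1 of all mice, and the DOCA-salt and sham values overlapped for all 4 genes.

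**Figure D1:**
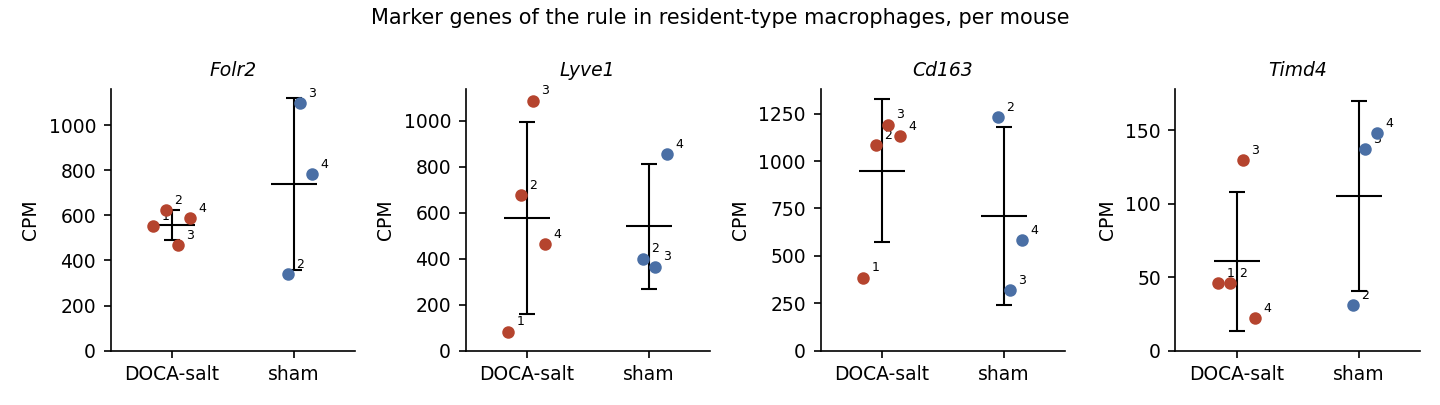
Level (CPM of summed UMIs) of the 4 genes that chose the cells, in resident-type macrophages of DOCA-salt (left, 4 mice) and sham (right, 3 mice with at least 5 members) hearts. Points are mice with their numbers, and the line and bars are the mean and SD. The groups overlap in each panel.

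The marker patterns went with other differences among members, which are described without a test because detection of a marker rises with depth and the groups contributed unequally. Summed over cells, the 84 members with a Lyve1 UMI held 5212 CPM of H2-Aa, a chain of MHC class II, against 8459.7 CPM in the 85 members without one. Cd74, the invariant chain that escorts MHC class II, stood at 22064 CPM in members with a Lyve1 UMI and at 32715 CPM in those without. Members with Lyve1 also had more Cbr2, a carbonyl reductase, at 1699.8 against 1048 CPM, and more F13a1, the coagulation factor XIII A chain, at 2294 against 1378 CPM. The 40 members with Cd163 as their sole marker had 10948 CPM of H2-Aa and 492 CPM of Cbr2, with a median of 1788 UMIs per cell. Their Mrc1, the mannose receptor, stood at 1941 CPM, against 1416 CPM over all members. Ccr2 stood at 233 CPM in these 40 cells and 89.3 CPM over all members, and F13a1 at 1154 and 1887 CPM.

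At the edge of the rule, 43 members had a marker sum of exactly 3 and 58 macrophages just outside it had a sum of 2. Cells with a sum of 3 held 926 CPM of Cbr2, 1183 CPM of F13a1 and 8951 CPM of H2-Aa, against 769, 1236 and 8929 CPM in cells with a sum of 2. Ccr2 stood at 257 CPM at a sum of 3 and 102 CPM at a sum of 2, and Il1b at 44.1 CPM and 153 CPM.

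None of the marker lists of other lineages was at 0 in the members. The 6 fibroblast markers summed to 5 UMIs with Col1a1, Col1a2, Col3a1 and Pdgfra at 0, and the lymphatic endothelium list, relevant because lymphatic vessels also make Lyve1, held 1 UMI in all with Pdpn, Flt4, Mmrn1 and Reln at 0. The 7 T cell markers summed to 22 UMIs with Cd3e, which the rule limits, and Trac at 0, and the 6 neutrophil markers to 36 UMIs with Cxcr2 and Ly6g at 0. The 6 markers of cardiomyocytes summed to 82 UMIs, those of endothelium to 32 and those of B cells, which the rule limits in part, to 228. The 6 NK markers summed to 694 UMIs in DOCA-salt members and 3 UMIs in sham members, or 0.518 to 36.9 per 10000 UMIs in DOCA-salt mice and 0 to 0.915 in sham mice with at least 5 members, and no NK marker was at 0. In 6 DOCA-salt members this sum lay between 23 and 199 UMIs, 1 cell in mouse 1, 2 cells in mouse 2 and 3 cells in mouse 4. The 7 monocyte markers summed to 140 UMIs in DOCA-salt members and 6 in sham members, or 0.259 to 6.47 per 10000 UMIs against 0.308 to 0.458, with Ace at 0.

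The members were then set against the other C1q macrophages of the same mice, which pass the same limits on C1q, B and T genes. These were 292 Trem2-rich cells, with at least 2 Trem2 UMIs, and 506 remaining cells with at most 1 Trem2 UMI and a marker sum of at most 2. Sums per mouse and class were fitted with edgeR with the mouse as a block over the 7 mice, and of the genes the rule counts no result is drawn. Other genes were not used by the rule, although they come from the same cells, and the rule favours cells of greater depth. The median depth was 3267.5 UMIs in DOCA-salt and 3571 in sham members, 5291 and 4487 in Trem2-rich cells, and 3034 and 2502 in remaining cells.

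Against Trem2-rich cells, members had more RNA of 13 resident-macrophage genes and less of 3 monocyte-derived and 4 early-response genes. Of 1313 genes tested, 82 (6.25%) passed an adjusted p of 0.05, with 49 (3.73%) higher and 33 (2.51%) lower in members, or 46 and 32 without the genes the rule counts. With no replicate block 26 were higher and 7 lower, and 8 each when the rule was applied to cells thinned to 2000 UMIs, a fit that kept 4 DOCA-salt mice and 1 sham mouse. Among 20 measured genes of a resident-macrophage list without the rule's own genes, 13 were higher and none lower, with a median log2 fold change of 0.81 against 0.00 over all genes tested. F13a1 averaged 1974 ± 722 CPM in members and 752 ± 188 CPM in Trem2-rich cells (SD, n = 7 mice each), a log2 fold change of 1.35 (SE 0.14, edgeR adjusted p = 3.55e-06). It was higher in members of 7 of 7 mice, and the classes did not overlap. Mrc1 averaged 1537 ± 386 CPM in members and 621 ± 182 CPM in Trem2-rich cells, again without overlap (log2 1.29, SE 0.17, edgeR adjusted p = 7.88e-05).

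Other genes higher in members than in Trem2-rich cells included Ccl24, an eosinophil-attracting chemokine (log2 1.82), Ltc4s, the synthase of leukotriene C4 (1.32), and Cbr2 (1.30). Gas6, which bridges dying cells to receptors of the Mertk and Axl kind (1.19), and Stab1, a scavenger receptor (0.76), passed as well. So did Fxyd2 (1.25), a modulator of the sodium pump, Stard8 (1.14), Ap2a2 (1.08), Slc9a9 (1.07) and the lectin Mgl2 (1.04). Of 8 measured scavenging genes 3 were higher, Stab1, Mrc1 and Gas6, all of them also in the resident-macrophage list, and the list median was 0.11. Of 5 measured monocyte-derived genes 3 were lower, Ccr2, Cd52 and Lsp1. Lower in members were Ccr2 (log2 -2.47), Lgals3 (-1.56) and Cd9 (-1.51), of which Lgals3 and Cd9 belong to a lipid-associated list with 2 of 14 measured genes lower and none higher. Of 13 early-response genes, which cells switch on within minutes of a stimulus, 4 were lower in members, Egr1 (-1.28), Ier2 (-1.27), Fos (-1.14) and Junb (-0.93), with a list median of -0.43. With single mice left out, Slc9a9 missed the threshold without DOCA-salt mouse 1, Mgl2 without DOCA-salt mouse 2 or sham mouse 4, and Egr1 without DOCA-salt mouse 2 or 3. Ier2 missed it without sham mouse 2, 3 or 4, Junb without DOCA-salt mouse 2 or 3 or sham mouse 2 or 3, Cd52 without any 1 of 4 mice, and Lsp1 without any 1 of 5 mice. Without DOCA-salt mouse 1 the log2 fold change of Mgl2 was 0.66, and without DOCA-salt mouse 3 that of Ier2 was -0.83. MHC class II did not pass apart from the protease gene Ctss (-0.53), and H2-Aa averaged 7745 ± 3295 CPM in members and 10173 ± 4096 CPM in Trem2-rich cells.

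Against the remaining macrophages a larger share of genes passed. Of 1844 genes tested, 195 (10.6%) passed, with 117 (6.34%) higher and 78 (4.23%) lower in members, or 112 and 78 without the genes the rule counts. Without DOCA-salt mouse 2, which had the most members, 69 were higher and 37 lower. Of 21 measured genes of the resident-macrophage list 13 were higher and none lower, with a median log2 fold change of 1.10 against -0.02 over all genes tested. Cbr2 averaged 1292 ± 479.8 CPM in members and 270.2 ± 68.8 CPM in remaining cells (log2 2.19, SE 0.18, edgeR adjusted p = 1.96e-08). Ltc4s averaged 254 ± 121 CPM in members and 56.4 ± 55.9 CPM in remaining cells (log2 2.37, SE 0.26, edgeR adjusted p = 1.37e-06). Both were higher in members of 7 of 7 mice, and the Cbr2 values of the classes did not overlap.

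Ccl24 (log2 2.31), Gas6 (1.72), F13a1 (1.67), Ninj1 (1.65), which encodes a protein of plasma membrane rupture, and Pf4, a platelet-type chemokine (1.39), followed. Fcgrt, the receptor that recycles antibodies, stood at 820.5 ± 133 CPM in members and 325 ± 67.5 CPM in remaining cells (log2 1.33). Ms4a4a (1.36), Pmp22 (1.41), Igfbp4 (1.33) and Cracr2b (1.74) also passed, Ms4a4a not without DOCA-salt mouse 2 (1.11). Of 6 measured iron and haem genes 2 were higher, Hmox1, which opens the haem ring (1.09), and Blvrb, which encodes biliverdin reductase B (0.80), and the list median was 0.28. Igf1 (0.89), the protease inhibitor gene Timp2 (1.04) and the complement receptor gene C5ar1 (0.61) were higher too. Against Trem2-rich cells Timp2 passed as well (0.58), but Hmox1 (-0.32), Blvrb (0.39), Igf1 (0.52) and C5ar1 (0.34) did not.

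Il1b, Ccr2 and most measured genes of MHC class II and of the early response were lower in members than in remaining macrophages. Il1b, an inflammatory cytokine, averaged 15.4 ± 24.7 CPM in members and 360.0 ± 270.1 CPM in remaining cells (log2 -3.70, SE 0.38, edgeR adjusted p = 5.40e-07), without overlap. Ccr2 averaged 65.4 ± 88.9 CPM in members and 424 ± 261 CPM in remaining cells (log2 -2.52). Of 8 MHC class II genes 5 were lower, H2-Aa (-0.65), H2-Ab1 (-0.64), H2-Eb1 (-0.62), Cd74 and Ctss among them, with a list median of -0.58. H2-Ab1 missed the threshold without DOCA-salt mouse 2 or 4, and H2-Eb1 without DOCA-salt mouse 2, 3 or 4. Of 14 early-response genes 9 were lower, with a median of -0.75. Of 10 chemokine and cytokine genes Il1b and Ccl4 (-1.81) were lower and Ccl6 (1.08), Ccl9 and Ccl12 (0.94) higher, with a median of -0.14. Ccl5 (-2.18) was lower too. With single mice left out Ccl4 ranged from -2.65 to -1.48 and Ccl5 from -2.88 to -1.58. Ccl12 was higher in members of 3 of 7 mice only, its adjusted p was 0.0443 by edgeR, and it missed the threshold without DOCA-salt mouse 1, 2 or 3 or sham mouse 4. Rgs1 (-1.93), Stap1 (-1.74), Id2 (-1.43), Tmsb10 (-1.39) and Tgfbr1 (-1.27) were also lower. Rgs1 missed the threshold without DOCA-salt mouse 2 (-1.71) or sham mouse 4 (-1.25) and came to -3.61 without DOCA-salt mouse 4, and Id2 missed it without DOCA-salt mouse 2. Ccl5 is also a gene of NK cells, and NK markers summed to 6.91 to 17.9 per 10000 UMIs in remaining cells of DOCA-salt mice and 14.7 to 37.7 in those of sham mice, and their part in the result was not tested. Neutrophil markers summed to 1.82 to 98.6 per 10000 UMIs in remaining cells of DOCA-salt mice and 0.214 to 0.378 in those of sham mice. In members they came to 0.259 to 0.984 and 0 to 0.458. The part of neutrophil RNA in the Il1b values was not tested.

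**Figure D2:**
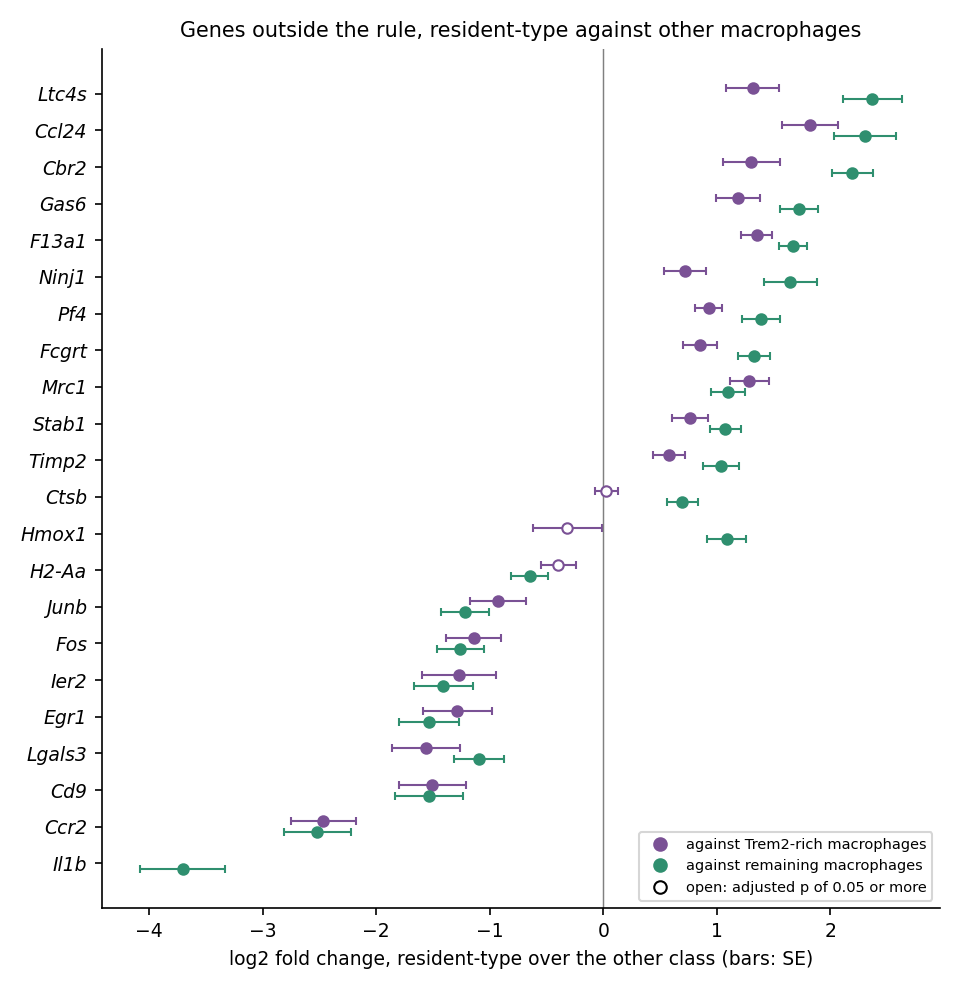
Log2 fold change (x axis, bars are SE) of resident-type over Trem2-rich (violet) and over remaining (green) macrophages from edgeR fits blocked by mouse (n = 7 mice), for genes the rule did not use. Open symbols did not pass an adjusted p of 0.05, and Il1b was not among the genes tested against Trem2-rich cells. Resident-macrophage genes lie to the right in both comparisons, early-response genes and Ccr2 to the left.

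In both comparisons 37 genes outside the rule were higher in members and 25 were lower. Upstream sequences (250 bases before the start, RefSeq, GRCm38.p6) were found for 28 of the 37 and were searched on both strands for GAGGAA, the core of sites bound by the macrophage factor PU.1, and for TGCTGA, the half-site of Maf factors. GAGGAA occurred in 16 of 28 (57.1%), against 24.0% of 1001 other genes tested in both comparisons and 23.1% of all 27025 promoters. TGCTGA occurred in 5 of 28 (17.9%), against 12.6% of the other genes tested and 15.8% of all promoters. Matches are a description of letters, not of binding. Upstream stretches of 3 scavenging and resident-macrophage genes that hold the letters are shown, with GAGGAA or TGCTGA, on either strand, in capitals. F13a1 lies at chr13:37050245-37050494 (minus strand), Mrc1 at chr2:14229164-14229413 (plus strand) and Stab1 at chr14:31168642-31168891 (minus strand).
F13a1: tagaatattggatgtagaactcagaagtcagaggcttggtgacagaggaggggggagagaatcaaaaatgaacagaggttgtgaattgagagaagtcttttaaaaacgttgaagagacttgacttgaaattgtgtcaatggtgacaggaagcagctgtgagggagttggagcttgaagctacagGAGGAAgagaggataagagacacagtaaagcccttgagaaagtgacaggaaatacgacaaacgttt
Mrc1: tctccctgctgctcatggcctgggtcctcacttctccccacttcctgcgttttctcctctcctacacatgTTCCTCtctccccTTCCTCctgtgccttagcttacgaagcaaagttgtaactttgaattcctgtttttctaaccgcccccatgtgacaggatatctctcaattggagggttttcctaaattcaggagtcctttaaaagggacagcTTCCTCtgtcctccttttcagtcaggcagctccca
Stab1: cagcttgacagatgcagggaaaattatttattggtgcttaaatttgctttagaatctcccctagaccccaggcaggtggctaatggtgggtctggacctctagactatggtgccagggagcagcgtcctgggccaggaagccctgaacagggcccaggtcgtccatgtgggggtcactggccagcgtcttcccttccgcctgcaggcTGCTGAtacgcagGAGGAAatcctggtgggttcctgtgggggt
Mrc1 holds the GAGGAA letters 3 times and F13a1 once, and Stab1 holds each motif once.

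At the surface, measured with 16 antibodies that the rule did not use, members carried less CD11c, an integrin typical of dendritic cells and of recruited macrophages. CD11c took 85.1, 63.7, 71.3 and 72.8 of 10000 antibody UMIs in members of DOCA-salt mice 1 to 4, and 115, 104 and 81.9 in members of sham mice 2 to 4. In all other C1q macrophages it took 200.7, 129.8, 126 and 102 of 10000 in the DOCA-salt mice and 199.7, 221 and 171 in the sham mice. Members were lower in 7 of 7 mice, by 0.93 ± 0.25 on the log2 scale (mean ± SD of the differences; exact sign-flip permutation p = 0.0156, two-sided, which is the smallest that 7 mice allow). After adjustment over 16 antibodies it did not pass (adjusted p = 0.188 by the same exact test). CD3, CD11b and CDc39, spelled as in the files, had unadjusted exact permutation p of 0.0312, 0.0469 and 0.0469 and did not pass either. CD11b, an integrin of monocytes and macrophages, was lower in members by 0.27 ± 0.27 on the log2 scale in 6 of 7 mice.

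**Figure D3:**
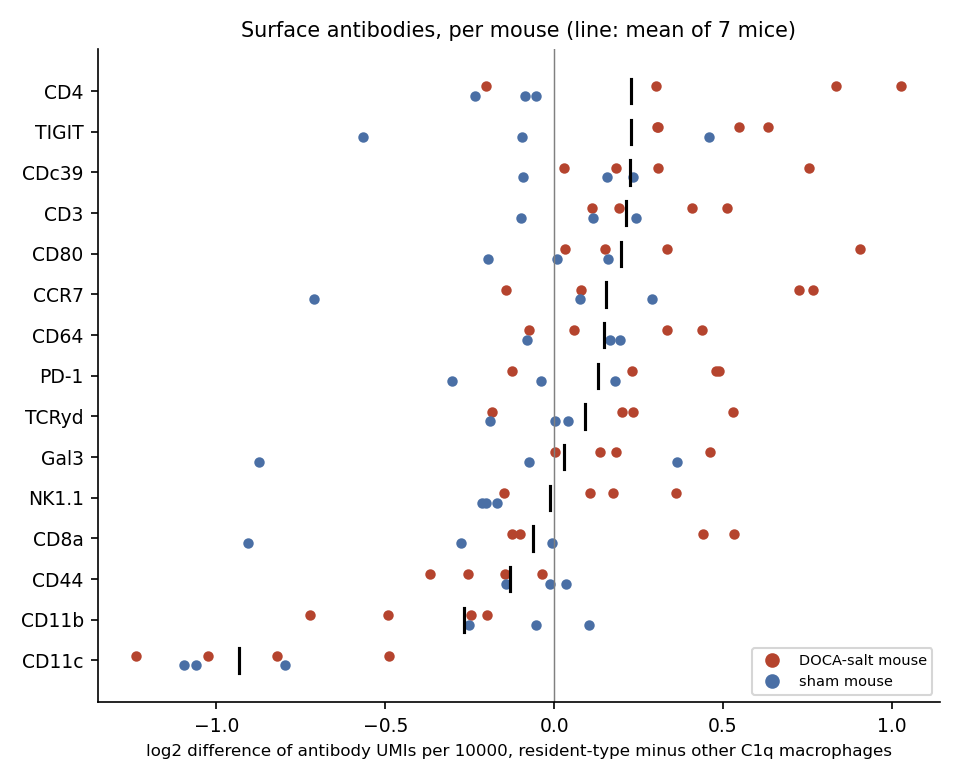
Log2 difference of surface antibody UMIs per 10000 between resident-type and all other C1q macrophages (x axis), 1 point per mouse (4 DOCA-salt, 3 sham), with the mean of 7 mice as a line, for all but 1 of the antibodies. CD11c is below 0 in every mouse, and no antibody passed after adjustment.

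The comparison of DOCA-salt with sham asked how these cells differ after the regimen. A single gene of 1585 tested (0.0631%) passed, Tsc22d3 (chrX:140539528-140600659, minus strand), the glucocorticoid-induced leucine zipper, which dampens inflammatory transcription. It stood at 477, 525, 622 and 544 CPM in members of DOCA-salt mice 1 to 4, and at 1325, 1144 and 1553 CPM in members of sham mice 2 to 4. The groups did not overlap, and the DOCA-salt mean was 542 ± 60.3 CPM against 1341 ± 205 CPM in sham (SD, n = 4 and 3; log2 -1.35, SE 0.21, edgeR adjusted p = 0.00678). The 2 members of sham mouse 1 held 4 Tsc22d3 UMIs, or 474 CPM, and with that mouse kept the gene did not pass (log2 -1.24, edgeR adjusted p = 0.0949). It also missed the threshold without sham mouse 4 (log2 -1.22, edgeR adjusted p = 0.0622) and when members needed a marker sum of 5, which left 4 DOCA-salt and 2 sham mice (log2 -1.38, edgeR adjusted p = 0.0574).

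No gene was higher in DOCA-salt members by edgeR, with 119 genes of either direction at an unadjusted p under 0.05. DESeq2 called 1 gene higher, Apoe, and 4 lower, Tsc22d3, Cebpb, H2-Aa and Cd74. In 159 genes (10% of those tested) the CPM of the 4 DOCA-salt and 3 sham mice did not overlap. In simulated data of this depth, 200 of 1585 genes were changed, with a spread between mice taken from the trend over genes. There 50% of genes changed 2-fold and 97% of genes changed 4-fold were recovered. The adjustment is stricter where fewer genes change, so these shares do not carry over to the real fit.

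For MHC class II all 8 measured genes had log2 fold changes below 0, with a median log2 fold change of -0.81 against 0.02 over all genes tested, and none passed by edgeR. H2-Aa (chr17:34282744-34287823, minus strand) stood at 7290.5, 5478, 3759 and 5144 CPM in members of DOCA-salt mice 1 to 4, and at 11062, 12765 and 8717 CPM in sham mice 2 to 4. Cd74 stood at 26334, 22777, 17914 and 23984 CPM in DOCA-salt members, and at 42862, 52022 and 32185 CPM in sham members. The groups did not overlap for either gene, but H2-Aa (log2 -0.98, SE 0.20) and Cd74 (log2 -0.89, SE 0.19) missed the threshold at an edgeR adjusted p of 0.0633. The 2 members of sham mouse 1 had 1303 CPM of H2-Aa and 3435 CPM of Cd74, below every DOCA-salt mouse, and with that mouse kept the adjusted p was 0.613 and 0.701 by edgeR. Without members that took most of their marker UMIs from Cd163, a setting chosen with the values known, both passed (log2 -1.68, edgeR adjusted p = 0.00697, and -1.48, adjusted p = 0.00954). Free RNA from B cells, which also make MHC class II, was measured by B markers at 3.63 to 4.33 per 10000 UMIs in DOCA-salt members and 1.83 to 5.24 in sham members, and its part was not tested.

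Cebpb, a transcription factor of myeloid cells, averaged 384 ± 85.8 CPM in DOCA-salt members and 875 ± 124 CPM in sham members (log2 -1.21, edgeR adjusted p = 0.0633), without overlap. Stk17b, a kinase, had a log2 fold change of -1.22 (edgeR adjusted p = 0.0698), H2-Eb1 of -0.96 (0.0802) and H2-Ab1 of -0.75 (0.169). Apoe, the lipid carrier apolipoprotein E, had values of the other sign and stood at 22211, 18454, 24966 and 22507 CPM in DOCA-salt members and at 13404, 13360.2 and 13134 CPM in sham members, again without overlap (log2 0.74, SE 0.17, edgeR adjusted p = 0.0734). Akap13 (log2 1.43, edgeR adjusted p = 0.153) and Skp1a (log2 2.38, edgeR adjusted p = 0.0802) did not overlap between the groups. The filter on low counts kept both only through the DOCA-salt mice, where they were high. Their lack of overlap is therefore not read as a result. S100a4, a calcium-binding protein of recruited myeloid cells, had 9, 26, 16 and 29 UMIs in members of the DOCA-salt mice and 0, 0 and 3 UMIs in sham mice 2 to 4. Its pooled ratio of DOCA-salt to sham was 9.11 (95% exact interval 3.01 to 45.1, counting error only), and it did not pass (log2 3.15, edgeR adjusted p = 0.114). Without sham mouse 4, which held the 3 sham UMIs, its log2 fold change was 6.96 (edgeR adjusted p = 0.294), and without DOCA-salt mouse 1 it passed (3.42, adjusted p = 0.0247).

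Ccl5 and Gzma had the largest positive values. Gzma is itself 1 of the 6 NK markers and gave 454 of their 694 UMIs in DOCA-salt members. That it went with the NK sum was therefore fixed in advance. Ccl5 is not in that list, and it ranked the DOCA-salt mice as the NK sum did. The filter on low counts kept both genes only through the DOCA-salt mice, where they were high. Gzma, a granzyme of killer cells, stood at 753, 209.9, 51.8 and 2484 CPM in DOCA-salt members, and at 0, 91.5 and 10.6 CPM in sham members. Ccl5 stood at 799, 249, 25.9 and 1242 CPM in DOCA-salt members, and at 30.8, 45.8 and 0 CPM in sham members. For both genes DOCA-salt mouse 3, whose 12 members held 2 NK UMIs in all, overlapped with sham. Neither passed (edgeR adjusted p = 0.0802 for Gzma and 0.0633 for Ccl5). Without the macrophages that held more than 1 NK or more than 5 neutrophil UMIs, Tsc22d3 stayed lower (log2 -1.28, edgeR adjusted p = 0.00646), H2-Aa had a log2 fold change of -0.92 (edgeR adjusted p = 0.0620), and again no gene was higher. That setting removes cells by their UMIs of NK genes, so it tests nothing about those genes themselves.

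**Figure D4:**
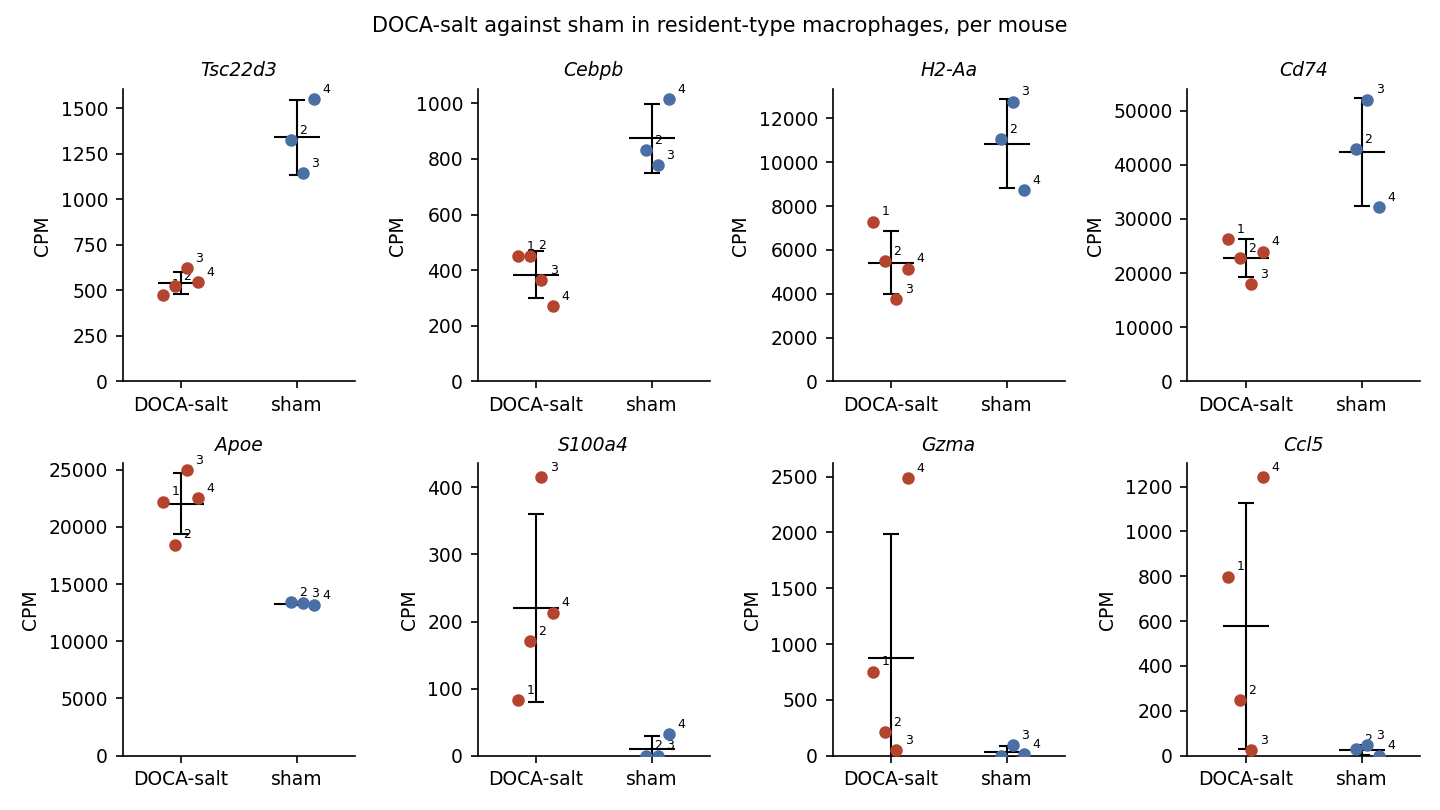
Level (CPM of summed UMIs) of 8 genes in resident-type macrophages of DOCA-salt (left, 4 mice) and sham (right, 3 mice) hearts, with the mean and SD as line and bars and the mouse number beside each point. Tsc22d3 alone passed the test across genes, Cebpb, H2-Aa, Cd74, Apoe and S100a4 do not overlap between the groups, and Gzma and Ccl5 do.

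The remaining lists held no call apart from Tsc22d3, the 1 of 6 measured corticosteroid-response genes that passed. Of these 6 genes 3 had log2 fold changes above 0 and 3 below, with a median of -0.18. Per1, a clock gene that corticosteroids induce, had 36.7, 32.8, 51.8 and 29.4 CPM in DOCA-salt members and 123, 183 and 106 CPM in sham members (log2 -1.78, edgeR adjusted p = 0.371). It passed the filter on low counts only through the sham mice, where it was high. Neither its values nor the median of these 6 genes are therefore read as a result. Zfp36, which destabilises cytokine mRNA, had a log2 fold change of 1.01 (edgeR adjusted p = 0.371), and its sign turned under 2 alternatives. None of 21 measured resident-macrophage genes passed, with a median of 0.08, and Maf (-0.86), Fcgr1 (-0.72) and Ccl24 (0.64) had the largest values, of which that of Ccl24 turned with sham mouse 1 kept. None of 13 lipid-associated genes passed (median -0.03), nor any of 10 scavenging genes (-0.09), 6 complement genes (0.15), 13 early-response genes (0.38), 9 chemokine and cytokine genes (0.01) or 7 growth factor and matrix genes (0.10). The same held for 6 iron and haem genes (median -0.01), 6 interferon-stimulated genes (0.00), 5 sodium and osmotic genes (-0.11) and 2 cell cycle genes (0.24). Of 19 monocyte-derived genes 4 were measured and none passed, with a median of 1.16. S100a4, 1 of the 4, passed the filter on low counts only through the DOCA-salt mice, where it was high. The median is therefore not read as a result. Among the 4 measured genes S100a6 averaged 698 ± 192 CPM in DOCA-salt and 162 ± 254 CPM in sham members (log2 1.46, edgeR adjusted p = 0.371). Without sham mouse 4 S100a6 passed (5.10, edgeR adjusted p = 0.0150). That fit kept only 2 sham mice, whose members held 32453 and 21856 UMIs, so its pass is not read as a result. C4b, whose reads can be shared with a near-identical copy, had a log2 fold change of 1.62 (edgeR adjusted p = 0.465). It too passed the filter only through the DOCA-salt mice.

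Whether DOCA-salt differed in its association between members and all other C1q macrophages was tested as a difference of effects. Of 3036 genes, 7 (0.231%) passed, all with a higher value in members, and they were Nkg7, Prf1, Ncr1, Klrb1c, Ccl5, Gzma and AW112010. Nkg7, Prf1, Ncr1, Klrb1c, Ccl5 and Gzma are known from NK cells, and DESeq2 called 3 genes. Without sham mouse 4, Nkg7, Prf1, Ncr1, Klrb1c and AW112010 missed the threshold, Ncr1 and Klrb1c did so without DOCA-salt mouse 4, and AW112010 came to 11.6 without sham mouse 3, against 4.92. Without the macrophages holding NK or neutrophil UMIs no gene passed by edgeR, with 137 at an unadjusted p under 0.05, and for the NK genes this follows from how those cells were removed. Tsc22d3 was also lower in DOCA-salt mice in all other C1q macrophages (log2 -1.12, edgeR adjusted p = 0.0377), with 4 against 4 mice and sham mouse 1 kept, where 17 of 3799 genes (0.447%) passed, 9 higher and 8 lower. With the mice of the members' fit, without sham mouse 1, 3 were higher and 6 lower, and Tsc22d3 was among the genes that passed (log2 -1.27, edgeR adjusted p = 0.0265). Other single mice were left out of the fit on 4 against 4 mice, with sham mouse 1 kept. Tsc22d3 then missed the threshold without DOCA-salt mouse 2 or 4 or sham mouse 2, 3 or 4, with an adjusted p of up to 0.212 by edgeR. The counts in these fits came to 5 higher and 4 lower without DOCA-salt mouse 2, 21 and 19 without DOCA-salt mouse 3, 6 and 4 without sham mouse 2, and 1 and 1 without either sham mouse 3 or sham mouse 4. The Tsc22d3 difference between members and the others was -0.01 with an SE of 0.26 (edgeR adjusted p = 0.9998). H2-Aa in the other macrophages had a log2 fold change of -0.62 (edgeR adjusted p = 0.174), and the difference was -0.31 with an SE of 0.28. Ms4a4a was higher in DOCA-salt mice in the other macrophages (log2 2.13, edgeR adjusted p = 0.00303) and had a log2 fold change of 0.27 in members, and the difference of -1.71 did not pass (edgeR adjusted p = 0.317). S100a4 (log2 1.61, edgeR adjusted p = 0.00972) and Apoe (log2 0.78, edgeR adjusted p = 0.0463) were higher there too. Their differences from members, 1.54 (SE 0.98) and 0.06 (SE 0.20), did not pass (edgeR adjusted p = 0.977 and 0.9998).

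None of the 16 antibodies passed between DOCA-salt and sham members. The smallest exact permutation p that 4 against 3 mice allow is 0.0571, and CD44, CDc39 and TCRyd reached it, with adjusted p of 0.305 by the same exact test. CD44 took 2444, 2488, 2188 and 2451 of 10000 antibody UMIs in DOCA-salt members and 2121, 1577 and 2177 in sham members, a log2 difference of 0.30. CDc39 took 1388, 1954, 1486 and 1898 of 10000 in DOCA-salt members and 2176, 2556 and 2086 in sham members, a log2 difference of -0.44.

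The difference in the share of resident-type macrophages lay within the spread of the mice. Members made up 1.22%, 2.41%, 1.54% and 1.74% of assigned leukocytes in DOCA-salt mice 1 to 4, and 0.204%, 0.985%, 1.12% and 2.01% in sham mice 1 to 4. The mean was 1.73% ± 0.502 in DOCA-salt and 1.08% ± 0.742 in sham mice (SD, n = 4 each; two-sided exact permutation p = 0.229, where the smallest that 4 against 4 allow is 0.0286). The 95% Clopper-Pearson intervals of single mice were wide, from 1.77% to 3.199% in DOCA-salt mouse 2 and from 0.0247% to 0.734% in sham mouse 1, and cover counting error only. Of the 967 C1q macrophages, members were 8.52%, 27.9%, 22.2% and 24.7% in DOCA-salt mice and 6.25%, 13.04%, 12.5% and 25.7% in sham mice, with means of 20.8% ± 8.52 and 14.4% ± 8.18 (two-sided exact permutation p = 0.371, n = 4 each). DOCA-salt mouse 1, with the most macrophages, had the lowest share among DOCA-salt mice. When each cell was thinned to 2000 UMIs before the rule was applied, the means came to 16.9% in DOCA-salt and 16.4% in sham mice (two-sided exact permutation p = 0.914, n = 4 each).

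**Figure D5:**
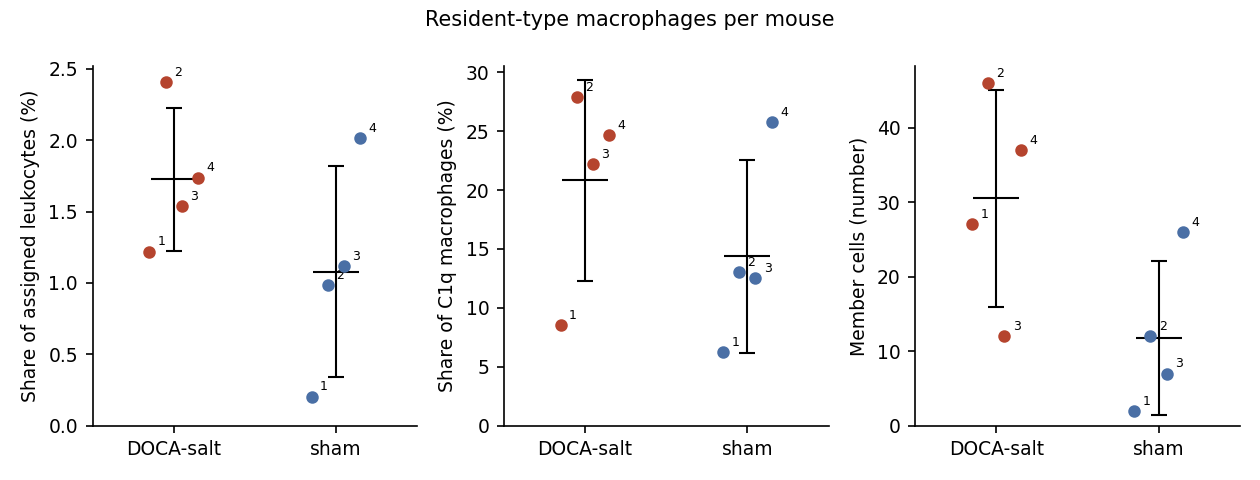
Resident-type macrophages per mouse as a share of assigned leukocytes (left, %), as a share of C1q macrophages (middle, %) and as a number of cells (right), for 4 DOCA-salt and 4 sham mice, with the mean and SD as line and bars and mouse numbers beside the points. The groups overlap in all 3 panels, and sham mouse 1 had 2 members.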

How the data were processed

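The authors deposited raw UMI counts per feature and barcode for 1 DOCA-salt and 1 sham library, with 31053 genes, 16 antibodies and 4 hashtags, made with Cell Ranger 3.1.0 per the file headers and aligned to mm10 per the submitters' processing notes, which also name Seurat 4. The barcode and feature lists hold text. Barcodes needed at least 200 genes and no more than 10% of mitochondrial UMIs, and were assigned to a mouse where the top hashtag had at least 2 times the UMIs of the next. This left 7030 DOCA-salt and 4118 sham cells. Doublets called by Scrublet (scanpy 1.11.5), 3.31% of DOCA-salt and 1.25% of sham cells, were kept, since the rule states no such filter.

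Counts of members were summed per mouse, for mice with at least 5 members, and tested with edgeR 4.0.16 in R 4.3.3 (filterByExpr, TMM, quasi-likelihood test, Benjamini-Hochberg adjustment over all genes tested, threshold 0.05). Comparisons between macrophage classes carried the mouse as a block. Shares and antibodies (log2 of UMIs per 10000 antibody UMIs) were tested with two-sided exact permutation tests. The labels call the mice biological replicates, and hashtags identify them. The members, lists and rule were chosen with earlier results of these data known, and the promoter motifs after the values were seen. Genes named were, per comparison, up to 12 per direction with the largest change at a mean of at least 50 CPM, the 6 with the smallest p where fewer than 5 passed, and up to 4 of each list. Alternatives were DESeq2 1.42.0, its size factors, no filter on low counts, no block, other cell filters and rule thresholds, thinning to 2000 UMIs and leaving out each mouse, and 4 were added after the data were seen. Scripts were tested on simulated data. Some genes and an antibody are not reported here. Depth is given with each class, and intervals cover counting error only.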

Additional observations from a re-analysis of the deposited data

Results flagged for a closer look

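In the 4 DOCA-salt mice, 3 antibody values lay far from those of the other mice of the group. CD44 took 2188 of 10000 antibody UMIs in members of DOCA-salt mouse 3, CD80 took 2119 in the same mouse, and CCR7 took 12.99 in DOCA-salt mouse 2. They were found among 35 groups of 4 mice, and chance gives such a value in about 1 in 20 groups.

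For 7 genes the DOCA-salt effect differed between resident-type and all other C1q macrophages by a test of that difference. The fitted log2 differences were 10.5 for Nkg7, 9.74 for Prf1, 9.09 for Ncr1, 8.75 for Klrb1c, 7.10 for Ccl5, 6.66 for Gzma and 4.92 for AW112010. The sizes depend on the prior count of the fit, since sham members held few or no UMIs of these genes, and they are no bounds. The NK markers of DOCA-salt members came mainly from 6 cells. In remaining macrophages NK markers stood at 6.91 to 17.9 per 10000 UMIs in DOCA-salt mice and 14.7 to 37.7 in sham mice. Without sham mouse 4 only Ccl5 and Gzma passed. No gene passed without the macrophages holding NK or neutrophil UMIs, which for NK genes follows from how those cells were chosen.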

How the results depend on the processing

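No paired analysis was possible because a hashtag's number names a mouse of 1 library and ties no DOCA-salt mouse to a sham mouse. The class comparisons carried the mouse as a block, and with no replicate block 26 genes were higher and 7 lower in members than in Trem2-rich cells (49 and 33 with it), and 41 were lower than in remaining cells (78 with it).

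A marker sum of at least 5 left 4 DOCA-salt and 2 sham mice in every fit on members, and thinning left 4 and 1 against Trem2-rich cells and 4 and 3 otherwise.

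For DOCA-salt against sham in members (0 higher, 1 lower), 14 genes were higher and 3 lower with no filter on low counts, and 1 and 4 by DESeq2. With no Trem2 condition 1 was higher and 3 lower, and without members that took most marker UMIs from Cd163 (the Cd163 limit) 1 and 7. With thinning to 2000 UMIs 1 was higher. A hashtag margin of 5 gave 4 lower, at most 5% mitochondrial UMIs gave 2, and a marker sum of at least 5 or sham mouse 1 kept gave 0. Leaving out single mice gave 0 to 2 higher and 1 to 6 lower, with 1 higher and 6 lower without DOCA-salt mouse 1, 2 and 3 without DOCA-salt mouse 3, and 1 higher without sham mouse 4.

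Against Trem2-rich cells, 29 genes were higher with a marker sum of at least 5, 30 with at most 5% mitochondrial UMIs, 109 with no Trem2 condition and 8 after thinning. Lower were 143 with no filter, 18 with a hashtag margin of 5, 18 with a marker sum of at least 2, 82 with no Trem2 condition and 8 after thinning. Single mice left out gave 34 to 49 higher and 13 to 33 lower, with 13 without DOCA-salt mouse 2, 18 without DOCA-salt mouse 3, and 20, 21 and 19 without sham mice 2, 3 and 4. Against remaining cells, 73 were higher with no filter, 62 with a marker sum of at least 5 and 75 after thinning, and 221 lower with no filter, 34 with a marker sum of at least 5 and 123 with no Trem2 condition. Single mice left out gave 69 to 117 higher and 37 to 83 lower, with 69 and 37 without DOCA-salt mouse 2.

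For the difference of effects (7 higher, 0 lower), 18 genes were higher with no filter, 3 by DESeq2, 12 with a marker sum of at least 2, 2 with at least 5, and 0 after thinning or without macrophages holding NK or neutrophil UMIs. Lower was 1 gene with no filter, 1 without Scrublet calls, 1 with the Cd163 limit and 1 with sham mouse 1 kept. Single mice left out gave 2 to 13 higher and 0 to 1 lower, with 13 without DOCA-salt mouse 3, 2 without sham mouse 4, and 1 lower without DOCA-salt mouse 1 or 2. Without the filter the median of all genes moved to 0.30 for DOCA-salt against sham, -0.14 against Trem2-rich cells, -0.23 against remaining cells and 0.21 for the difference of effects.

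Among values that had not passed for DOCA-salt against sham, Ccl24 turned to -0.53 with sham mouse 1 kept, Zfp36 to -0.26 with a marker sum of at least 2 and -0.14 with the Cd163 limit, Ier2 to -0.13 after thinning, and Junb to -0.031 with a marker sum of at least 2 and -0.23 after thinning. The cause was not tested for any of these. Shares and antibodies kept their side of the threshold under every alternative run for them, but many of these tests could not pass. The smallest exact permutation p for 4 against 3 mice is 0.0571, for antibodies between groups and shares with 1 mouse left out. Over 7 mice the smallest sign-flip p is 0.0156, so 1 antibody alone could not pass after adjustment. Shares with 4 against 4 mice could pass. Their smallest exact permutation p was 0.0857, for members among assigned leukocytes with a marker sum of at least 2.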
